A study of Homo sapiens with 6 samples.

Results

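The keratin family was taken as every protein-coding gene whose symbol is KRT followed by a number and, where present, a letter from A to C. This rule gave 55 of the 61279 genes to which reads were summed, with 29 type I and 26 type II members. Keratins are the intermediate filament proteins of epithelial cells, and each filament is built from heterodimers of an acidic type I and a basic type II chain. Simple epithelia, including luminal breast and prostate, mainly use KRT8 with KRT18 and KRT19, basal cells of stratified epithelia use KRT5 with KRT14, and hair and its root sheaths use keratins of their own. A chain without a partner is commonly unstable in cells, so the mRNA of the members is described here by class and by partner.

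Gene expression was measured by RNA sequencing (RNA-seq) in 6 libraries labelled T47D, an established hormone receptor-positive breast cancer line. For 3 libraries the label gives 24 hours with 4 μM MI-503, an inhibitor of the interaction between menin and the histone methyltransferase MLL1, and for 3 it gives 24 hours with DMSO, the vehicle. The genotype is given as wild type in all 6, which are labelled biological replicates 1 to 3, and each library held 17404736 to 22168525 reads. Levels are given as CPM, the read count relative to the scaled library size, and, where genes are compared with each other, as TPM, a relative abundance that takes transcript length into account. Correlations between libraries were taken over log2(CPM + 1) of all 61279 genes, tested or not, which are not independent replicates. Genes without a read in any library were included. Libraries of the same label correlated at 0.99 to 0.997 and libraries of different labels at 0.919 to 0.926.

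The markers did not bear out the cell type given for the DMSO libraries. ESR1, the estrogen receptor gene, averaged 248 ± 43.6 CPM in libraries labelled MI-503 and 0.0645 ± 0.112 CPM in libraries labelled DMSO (SD, n = 3 each), while KLK3, which encodes prostate-specific antigen, had no read with the MI-503 label and averaged 3708 ± 47.9 CPM with the DMSO label (SD, n = 3). Of 10 luminal breast markers, 9 were tested and all 9 were higher with the MI-503 label, with summed levels of 7597 to 8992 CPM in libraries labelled MI-503 and 172 to 301 CPM in libraries labelled DMSO. All 10 prostate markers were lower, with summed levels of 124 to 135 CPM with the MI-503 label and 6635 to 8032 CPM with the DMSO label. Over all tested genes 31.7% were higher and 31.2% were lower, by the test described below. With the DMSO label 5 of the 10 breast markers lay under 1 CPM, and with the MI-503 label 5 of the 10 prostate markers did. The treatment and the origin of the libraries therefore cannot be told apart in any difference below, and the groups are called by their labels throughout.

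Keratin mRNA was several times more abundant with the MI-503 label. The members together took 0.549%, 0.804% and 1.00% of all TPM in libraries labelled MI-503, and 0.0967%, 0.0945% and 0.0884% in libraries labelled DMSO. Fewer cells of a keratin-rich type and less keratin RNA per cell cannot be told apart in such bulk samples. Of the 55 members, 13 had enough reads to be tested, and with the MI-503 label 9 of these were higher (KRT7, KRT8, KRT18, KRT19, KRT80, KRT23, KRT15, KRT13 and KRT86), 3 were lower (KRT14, KRT20 and KRT6C) and KRT10 did not pass. The test was edgeR's quasi-likelihood test with Benjamini-Hochberg adjustment over all genes, at an adjusted p under 0.05. Over all 16442 genes tested, 31.7% were higher and 31.2% were lower (62.9% in either direction), so a change in itself is common here. Requiring a log2 fold change beyond 2 as well left 8 members higher and 3 lower, against 12.6% and 11.7% of all tested genes. The filter on low counts lets a gene through when it is high under a single label, and 5 of the 13 tested members had no reads under the other label. Across all tested genes the median log2 fold change was −0.00.

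The remaining 42 members were not tested. No read was assigned in any library to 22 of them, among them KRT5 and KRT17, and the other 20 held at most 20 reads in a library. In the whole family, 14 members had reads under both labels, 13 with the MI-503 label alone and 6 with the DMSO label alone. In the plot of levels by library, KRT8 and KRT18 hold more reads than any other member with the DMSO label, and KRT8, KRT18 and KRT19 do so with the MI-503 label.

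**Figure D1:**
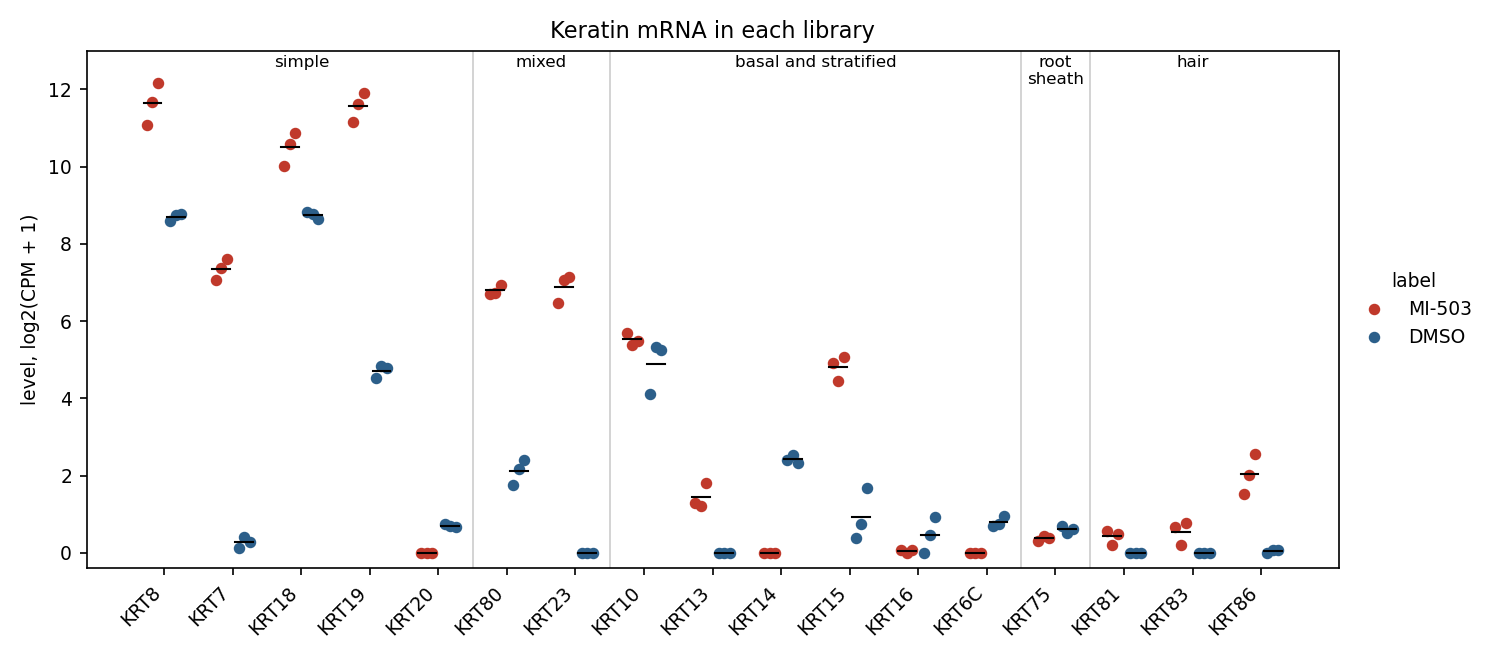
Level of 17 keratins in each library as log2(CPM + 1), grouped by class, with libraries labelled MI-503 (red) left of those labelled DMSO (blue); each dot is 1 library and each black line the mean of 3. KRT8, KRT18 and KRT19 hold the most reads with the MI-503 label. KRT14, KRT20 and KRT6C had reads with the DMSO label alone, and KRT23, KRT13, KRT81 and KRT83 with the MI-503 label alone.

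Among the simple keratins, 4 of 5 were higher with the MI-503 label and KRT20 was lower. KRT8, the main type II chain of simple epithelia, stood at 2155, 3294 and 4624 CPM in libraries labelled MI-503, and at 384, 427 and 435 CPM in libraries labelled DMSO. The groups did not overlap, as was the case for 34.7% (higher) and 34.0% (lower) of all tested genes, and the DMSO-labelled libraries lay close together. The log2 fold change was 3.01 (standard error, SE, 0.27, adjusted p = 9.77e-06, edgeR). KRT18, its type I partner, stood at 1038, 1543 and 1880 CPM with the MI-503 label, and at 450.3, 435 and 399.5 CPM with the DMSO label. Every MI-503-labelled library was above every DMSO-labelled one, but the difference was smaller than for KRT8, with a log2 fold change of 1.80 (SE 0.22, adjusted p = 7.68e-05, edgeR).

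KRT19, a type I keratin of luminal breast and other simple epithelia that lacks most of the tail domain, stood at 2276, 3163 and 3861 CPM in libraries labelled MI-503, and at 22.3, 27.6 and 26.6 CPM in libraries labelled DMSO. It was the member with the widest gap among those with over 1000 reads in each group, with a log2 fold change of 6.93 (SE 0.28, adjusted p = 5.31e-08, edgeR). KRT7, the type II keratin of glandular and transitional epithelia, stood at 134, 166 and 194 CPM with the MI-503 label, and at 0.0905, 0.339 and 0.228 CPM with the DMSO label, where 14 reads in all were assigned to it. The log2 fold change was 9.53 (SE 0.33, adjusted p = 2.87e-08, edgeR). Nearly all of those 14 reads were assigned to short transcripts that are not full-length coding ones, and with counts scaled by transcript length the log2 fold change was 7.74 (adjusted p = 9.35e-07, edgeR). The full-length coding transcript KRT7-201 received 2559, 3041 and 3155 reads with the MI-503 label, and 0, 1.07 and 0 reads with the DMSO label.

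KRT20, a type I keratin of intestinal epithelium, urothelium and Merkel cells, had no read in libraries labelled MI-503 and stood at 0.678, 0.629 and 0.593 CPM in libraries labelled DMSO, with 41 reads in all. With 3 reads per group taken as the limit of detection (0.0531 CPM for the MI-503 label, 0.0464 CPM for the DMSO label), it was at least 11.9-fold lower with the MI-503 label (adjusted p = 0.000478, edgeR). None of its 31-base sequence words occurs in the transcripts of another gene. Such limits and all counting intervals here cover counting error only.

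In 7 of the 9 members that were higher with the MI-503 label (KRT8, KRT18, KRT19, KRT7, KRT80, KRT23 and KRT86), replicate 1 was the lowest and replicate 3 the highest of the MI-503-labelled libraries. The share of reads from mitochondrial genes was 5.34%, 3.54% and 2.84% in replicates 1, 2 and 3 with the MI-503 label, and 3.78%, 1.38% and 7.18% with the DMSO label. The part of this share in the spread was not tested.

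KRT80 and KRT23, which are found in several kinds of epithelium, were also higher with the MI-503 label. KRT80, a type II keratin of the desmosomal periphery, stood at 103, 106 and 122 CPM in libraries labelled MI-503, and at 2.40, 3.49 and 4.29 CPM in libraries labelled DMSO, with a log2 fold change of 5.02 (SE 0.24, adjusted p = 1.3e-07, edgeR). KRT23, a type I keratin, stood at 87.9, 132 and 141 CPM with the MI-503 label, 6707 reads in all, and had no read with the DMSO label. It was therefore at least 2562-fold higher with the MI-503 label (adjusted p = 2.47e-07, edgeR), the highest bound in the family. Transcripts with a retained intron took 29.1%, 21.5% and 20.6% of the KRT23 reads in the 3 MI-503-labelled libraries.

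Per length, the order of the members differed between the labels. With the MI-503 label, KRT19 was highest at 3326 ± 834 TPM, followed by KRT8 at 2543 ± 935 TPM and KRT18 at 1582 ± 459 TPM (SD, n = 3 each). Each neighbouring pair overlapped over libraries, although KRT19 exceeded KRT8 and KRT8 exceeded KRT18 within each of the 3. Far below came KRT7 at 163 ± 20.8 TPM, KRT23 at 97.0 ± 23.2 TPM, KRT10 at 72.1 ± 12.7 TPM, KRT80 at 36.3 ± 3.35 TPM and KRT15 at 18.0 ± 3.55 TPM (SD, n = 3 each). With the DMSO label, KRT18 was highest at 486 ± 56.0 TPM, above KRT8 at 357 ± 7.17 TPM in every library (SD, n = 3 each). KRT10 at 46.5 ± 13.5 TPM and KRT19 at 32.2 ± 4.60 TPM came next and overlapped (SD, n = 3 each), and KRT14 at 5.21 ± 0.866 TPM was the fifth (SD, n = 3).

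The balance of type I over type II mRNA, by summed TPM, was 2.08, 1.92 and 1.70 in libraries labelled MI-503, and 1.70, 1.56 and 1.50 in libraries labelled DMSO. The means were 1.90 ± 0.191 with the MI-503 label and 1.59 ± 0.104 with the DMSO label (SD, n = 3 each), and the lowest MI-503-labelled and the highest DMSO-labelled library lay next to each other. The total thus differed far more than the balance, while the chains behind it were different. On the type I side, KRT19 made up 65.3 ± 0.598% with the MI-503 label and 5.67 ± 1.06% with the DMSO label (SD, n = 3 each). KRT18 made up 30.8 ± 1.30% with the MI-503 label and 84.8 ± 4.18% with the DMSO label (SD, n = 3 each). On the type II side KRT8 led under both labels, with 90.1% to 93.9% in libraries labelled MI-503 and 98.9% to 99.4% in libraries labelled DMSO.

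Partner by partner, the level of KRT18 over that of KRT8, in TPM, was 0.677, 0.653 and 0.574 with the MI-503 label, and 1.53, 1.31 and 1.24 with the DMSO label. KRT8 was thus in excess of KRT18 in each MI-503-labelled library, and KRT18 in excess of KRT8 in each DMSO-labelled one. KRT19, which can pair with KRT7 or KRT8, exceeded KRT7 by 17.4-fold to 22.6-fold with the MI-503 label and by 21.7-fold to 120.5-fold with the DMSO label, where KRT7 rests on 14 reads. From protein-coding transcripts alone, KRT7 stood at 135 TPM with the MI-503 label and at 0.0155 TPM with the DMSO label, so its ratio to KRT19 with the DMSO label depends on which transcripts are counted.

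**Figure D2:**
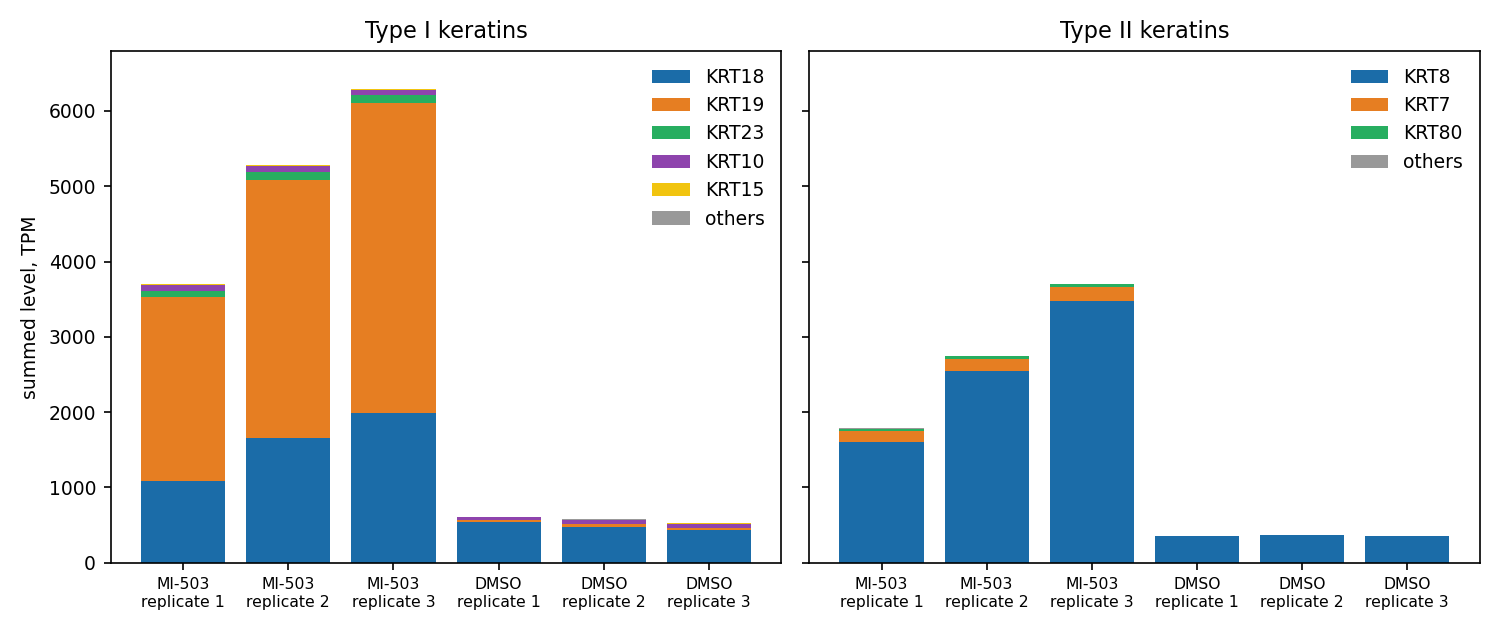
Summed level in TPM of the type I keratins (left) and the type II keratins (right) in each library, the 3 labelled MI-503 first, with coloured segments for the main members. KRT19 fills most of the type I column with the MI-503 label and KRT18 most of it with the DMSO label, while KRT8 fills nearly all of every type II column.

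Gene structure bears on these values, because KRT8 (chr12:52897187-52949954, minus strand, GRCh38) and KRT18 (chr12:52948871-52952906, plus strand) overlap head to head at their 5′ ends. Of 17 annotated KRT8 transcripts in the files, 8 start inside the KRT18 gene. They took 8.15%, 2.98% and 4.01% of the KRT8 reads in libraries labelled MI-503, and 9.42%, 8.07% and 7.03% in libraries labelled DMSO, so the groups overlapped. KRT8-201, which starts outside the KRT18 gene, carried most reads in every library. Of the 31-base words in KRT18 transcripts, 36.7% also occur in another gene and 14.8% in KRT8, while 25.8% of the words in KRT8 transcripts occur elsewhere and 8.9% occur in the pseudogene KRT8P3. A word was also counted as shared when its reverse complement occurred in the other gene. The sources used here do not state whether the reads were assigned by strand.

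Of the 21 keratins of basal and stratified epithelia, 5 were tested, with 2 higher (KRT15 and KRT13), 2 lower (KRT14 and KRT6C) and KRT10 not passing. KRT5, the type II chain that pairs with KRT14 and KRT15 in basal cells, had no read in any library. KRT14, the type I chain of basal keratinocytes and myoepithelial cells, had no read in libraries labelled MI-503 and stood at 4.30, 4.84 and 4.01 CPM in libraries labelled DMSO. It was at least 82.3-fold lower with the MI-503 label (adjusted p = 2.1e-05, edgeR), and all 3 DMSO-labelled libraries lay close together. Of its 31-base words 33.4% occur in other genes, including 13.7% in the pseudogene KRT16P6.

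KRT15, a type I keratin of basal cells and hair follicle stem cells that luminal breast lines can also express, stood at 29.4, 21.0 and 32.6 CPM with the MI-503 label, and at 0.317, 0.678 and 2.19 CPM with the DMSO label. The log2 fold change was 4.69 (SE 0.54, adjusted p = 4.49e-05, edgeR), and 5.79 without DMSO replicate 3 (adjusted p = 2.2e-06, edgeR). That library held 48 of the 69 KRT15 reads with the DMSO label. It also differed in the transcripts used. In libraries labelled MI-503, KRT15-202 led with 55.9%, 48.5% and 53.5% of the KRT15 reads and KRT15-201 took 25.3%, 18.9% and 16.7%, whereas KRT15-201 led with 60.9% in DMSO replicate 3.

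**Figure D3:**
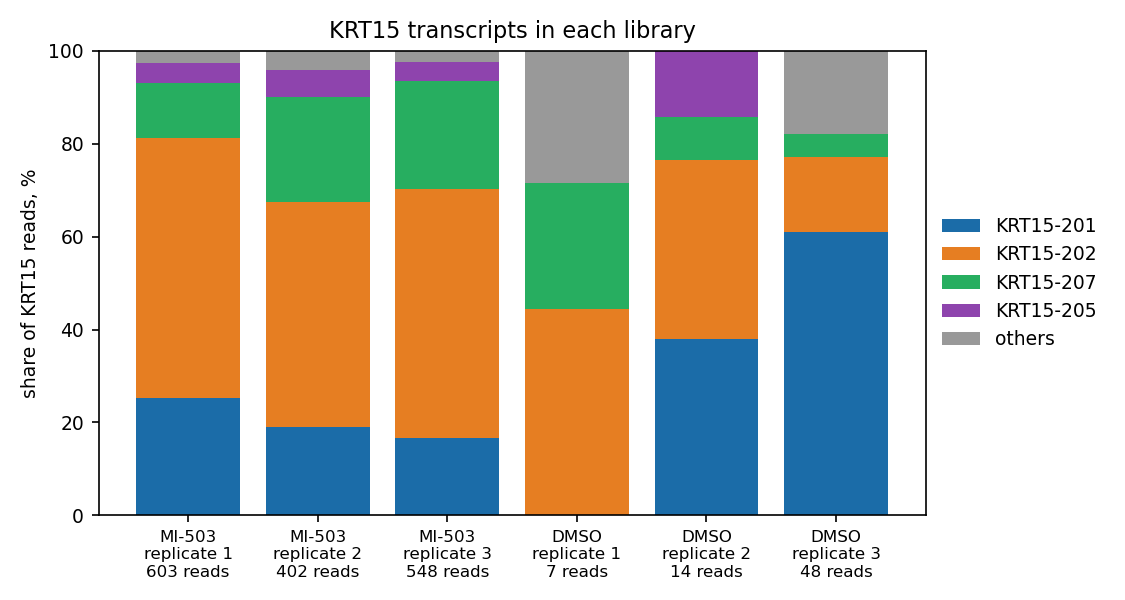
Share of KRT15 reads in percent assigned to each transcript in each library, the 3 labelled MI-503 first, with the reads behind each column below it. KRT15-202 leads in all 3 libraries labelled MI-503, and KRT15-201 leads in DMSO replicate 3 with 60.9%; the columns for DMSO replicates 1 and 2 rest on 7 and 14 reads.

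KRT13, a type I keratin of the upper layers of internal stratified epithelia, stood at 1.46, 1.31 and 2.49 CPM in libraries labelled MI-503 and had no read in libraries labelled DMSO. This made it at least 37-fold higher with the MI-503 label (adjusted p = 0.000138, edgeR). KRT4, the type II chain it pairs with, followed the same distribution at a lower level, with 0.634, 0.471 and 0.297 CPM with the MI-503 label and no read with the DMSO label. KRT4 had too few reads for the test and was at least 10.3-fold higher by its 27 reads.

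KRT10, a type I keratin of suprabasal epidermis, was the only tested member that did not pass. It stood at 50.9, 41.1 and 43.9 CPM with the MI-503 label, and at 16.4, 39.0 and 37.2 CPM with the DMSO label, where replicate 1 was low. The log2 fold change was 0.55 (SE 0.29, adjusted p = 0.122, edgeR), with adjusted p-values of 0.0254 to 0.232 over the alternatives. KRT10 passed with no filter on low counts (log2 fold change 0.59, adjusted p = 0.0254) and with length-scaled counts (0.70, adjusted p = 0.0452), and without DMSO replicate 1 the log2 fold change was 0.25 (adjusted p = 0.228). No read was assigned to KRT1, its type II partner, or to KRT9 and KRT77, and KRT2 had 2 reads with the MI-503 label and 7 with the DMSO label.

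KRT16, a type I keratin of activated keratinocytes, had 2 reads with the MI-503 label and 28 with the DMSO label, at 0, 0.387 and 0.912 CPM in DMSO replicates 1, 2 and 3. The ratio of reads was 12.2-fold lower with the MI-503 label (95% exact counting interval 3.08 to 106), but the gene was not tested and the DMSO-labelled libraries differed widely. Without the filter on low counts KRT16 was lower (log2 fold change −3.38, adjusted p = 0.0159, edgeR). Its type II partners are the KRT6 genes, which are near-identical copies. KRT6C had no read with the MI-503 label and stood at 0.633, 0.678 and 0.957 CPM with the DMSO label, at least 14.2-fold lower (adjusted p = 0.000426, edgeR). KRT6B stood at 0.244, 0.262 and 0.119 CPM with the MI-503 label, and at 0, 0 and 0.274 CPM with the DMSO label. KRT6A had 2 reads, both in MI-503 replicate 2. KRT6A and KRT6B were not tested, and no direction is given for them.

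The assignment of so few reads among these copies is uncertain. The coding sequences of KRT6A and KRT6B were 97.5% identical, those of KRT6A and KRT6C 97.9%, and those of KRT6B and KRT6C 98.5%, over 1692 bases. Of the 31-base words of KRT6A, KRT6B and KRT6C transcripts, 44.1%, 57.8% and 51.5% occur in another gene. The stretch of 60 coding bases in exon 2 shown here, on the gene strand of hg38, is one in which the copies can be told apart, and capitals mark the 9 positions that differ among them.
KRT6A (chr12:52491555-52491614): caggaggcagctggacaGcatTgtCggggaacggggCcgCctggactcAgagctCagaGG
KRT6B (chr12:52450439-52450498): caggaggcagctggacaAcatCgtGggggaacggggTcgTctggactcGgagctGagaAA
KRT6C (chr12:52472099-52472158): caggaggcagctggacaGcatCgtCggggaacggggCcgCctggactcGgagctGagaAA
KRT6C carries the KRT6A letter at some of these positions and the KRT6B letter at others.

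Hair keratins were nearly silent under both labels, with 1 of 17 members tested. KRT86, a type II hair keratin, stood at 1.90, 3.09 and 4.93 CPM in libraries labelled MI-503, and at 0, 0.0484 and 0.0456 CPM in libraries labelled DMSO. By 181 reads with the MI-503 label and 2 with the DMSO label, it was 104-fold higher (95% exact counting interval 28.3 to 863; adjusted p = 4.3e-05, edgeR). Its fitted log2 fold change was 6.47, and 4.83 with length-scaled counts (adjusted p = 0.000749). KRT81 stood at 0.488, 0.157 and 0.416 CPM and KRT83 at 0.585, 0.157 and 0.713 CPM with the MI-503 label, and neither had a read with the DMSO label. By their 20 and 27 reads these copies were at least 7.64-fold and 10.3-fold higher with the MI-503 label, without a test. The type I hair keratins that would pair with them held at most 4 reads in a library, and 5 of the 17 hair keratins had no read at all.

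KRT81, KRT83 and KRT86 are also close copies. Over the 910 bases of the coding exons that have the same length in all of them, they were 94.5% to 97.0% identical. Coding exons of unequal length were not compared. Of the 31-base words of KRT86 transcripts, 48.2% occur in other genes and 34.3% in KRT81. The part of reads of 1 copy in the level of another was not tested. The 60 coding bases of exon 5 shown here, on the gene strand of hg38, are a stretch in which the copies can be told apart, with capitals at the 7 positions that differ.
KRT81 (chr12:52288011-52288070): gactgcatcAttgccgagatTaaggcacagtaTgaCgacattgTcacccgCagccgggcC
KRT83 (chr12:52316886-52316945): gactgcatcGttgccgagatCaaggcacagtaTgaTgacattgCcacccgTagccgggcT
KRT86 (chr12:52305318-52305377): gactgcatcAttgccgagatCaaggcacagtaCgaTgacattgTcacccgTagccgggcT
Markers of hair follicle other than keratins were measured beside them. Of 7 such genes 4 were tested and all 4 were higher with the MI-503 label (PADI3, MSX2, HOXC13 and LEF1), beside 31.7% of all tested genes. Summed levels were 197 to 223 CPM in libraries labelled MI-503 and 16.9 to 20.5 CPM in libraries labelled DMSO. TCHH, which encodes the root sheath protein trichohyalin, had no read. S100A3 averaged 0.0686 CPM with the MI-503 label and had no read with the DMSO label. DSG4 had no read with the MI-503 label and averaged 0.0304 CPM with the DMSO label.

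None of the 9 keratins of the inner root sheath and companion layer was tested, and 7 had no read in any library. KRT75, a type II keratin of the companion layer, was the main exception. It stood at 0.244, 0.366 and 0.297 CPM with the MI-503 label, and at 0.633, 0.436 and 0.547 CPM with the DMSO label, 17 and 35 reads in all. The groups did not overlap, but these counts were too low for the test.

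The genes of the family lie in clusters on chromosomes 12 and 17, with KRT18 as the type I gene at the end of the type II cluster. The members with most reads sat at the ends of the chromosome 12 cluster. KRT80 and KRT7 lay at its start, 40.5 kb apart, KRT8 and KRT18 at its end, and the 22 genes between KRT86 and KRT8 had at most 1 TPM on average under either label. On chromosome 17, KRT13, KRT15 and KRT19 were neighbours and all were higher with the MI-503 label, whereas KRT14, 2 genes further on, was lower. KRT20 and KRT23 were direct neighbours, 37.5 kb apart, and differed in opposite directions.

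**Figure D4:**
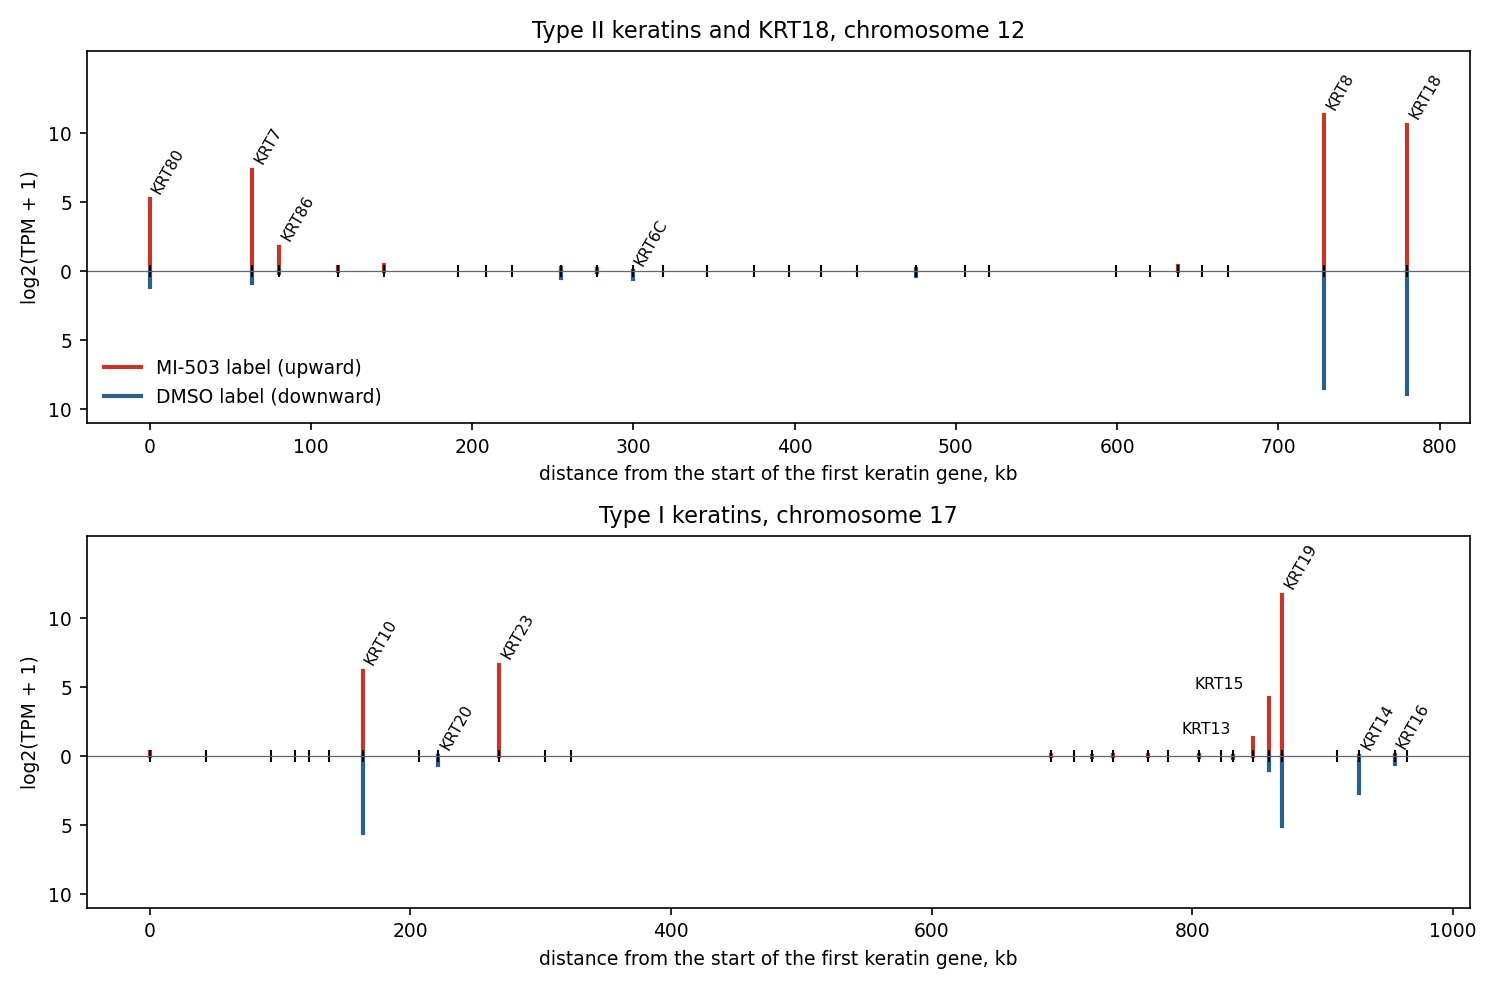
Mean level of each keratin as log2(TPM + 1), upward for the MI-503 label and downward for the DMSO label, against the distance in kb from the start of the first keratin gene on chromosome 12 (top) and chromosome 17 (bottom); black ticks mark all 55 members. Most members between the labelled ones are at or near 0 under both labels.

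Promoter sequence was compared because the members share a class of gene and differ widely in level. RefSeq (GRCh38.p14) gave a promoter, from 250 bases before to 50 bases after the start, for 34 of the 55 members. TATAA or ATAAA, read on the gene strand from 40 to 15 bases before the start, occurred in 30 of these 34 and in 6.2% of all 35116 promoters. A member was counted if any of its listed promoters had a motif, whereas the 6.2% counts each promoter singly. The motifs can overlap each other as in TATAAA, and KRT8, KRT26, KRT32 and KRT73 had no such match. The 120 bases before the start are shown for 4 members that were read in these libraries, with the motif in capitals.
KRT10 (chr17:40822615-40822734, minus strand): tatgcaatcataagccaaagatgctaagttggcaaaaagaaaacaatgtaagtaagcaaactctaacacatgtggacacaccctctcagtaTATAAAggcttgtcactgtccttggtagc
KRT20 (chr17:40885243-40885362, minus strand): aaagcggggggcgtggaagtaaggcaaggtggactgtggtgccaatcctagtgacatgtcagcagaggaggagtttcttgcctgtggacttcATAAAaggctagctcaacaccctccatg
KRT4 (chr12:52814117-52814236, minus strand): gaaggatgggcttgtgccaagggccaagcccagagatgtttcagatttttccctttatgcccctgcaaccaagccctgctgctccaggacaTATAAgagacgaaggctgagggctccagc
KRT75 (chr12:52434372-52434491, minus strand): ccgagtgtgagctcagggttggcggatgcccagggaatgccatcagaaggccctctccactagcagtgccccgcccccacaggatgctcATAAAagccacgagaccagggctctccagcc
The first base of the motif lay 29, 28, 29 and 31 bases before the start in KRT10, KRT20, KRT4 and KRT75. These members had 0 to 72.1 TPM with the MI-503 label and 0 to 46.5 TPM with the DMSO label.

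Of 17 genes whose products anchor or organise keratin filaments, 7 were higher with the MI-503 label, 6 were lower and 4 did not pass, beside 31.7% higher and 31.2% lower over all tested genes. Their median log2 fold change was 0.04. PPL, which encodes the cornified-envelope linker periplakin, averaged 66.9 ± 10.4 CPM with the MI-503 label and 11.4 ± 2.10 CPM with the DMSO label (SD, n = 3 each; log2 fold change 2.56, SE 0.21, adjusted p = 4.28e-06). JUP, which encodes plakoglobin, averaged 998 ± 77.0 CPM with the MI-503 label and 317 ± 36.4 CPM with the DMSO label (SD, n = 3 each; 1.65, SE 0.16, adjusted p = 1.57e-05). DST, which encodes dystonin, was also higher (log2 fold change 2.51, SE 0.26, adjusted p = 2.18e-05). PKP1, a plakophilin of stratified epithelia, averaged 0.219 ± 0.128 CPM with the MI-503 label and 6.02 ± 1.61 CPM with the DMSO label (SD, n = 3 each), which gave a log2 fold change of −4.77 (SE 0.49, adjusted p = 2.24e-05).

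Of 16 other intermediate filament genes, 11 were tested, of which 4 were higher with the MI-503 label, 2 were lower and 5 did not pass. Over all tested genes 62.9% passed in either direction, so this count does not set the list apart. The median log2 fold change was −0.33. VIM, the intermediate filament of mesenchymal cells, averaged 0.452 ± 0.221 CPM with the MI-503 label and 0.745 ± 0.214 CPM with the DMSO label (SD, n = 3 each; adjusted p = 0.26). LMNA, which encodes the nuclear lamins A and C, averaged 814 ± 86.7 CPM with the MI-503 label and 142 ± 13.4 CPM with the DMSO label (SD, n = 3 each), which gave a log2 fold change of 2.52 (SE 0.16, adjusted p = 1.02e-06). BFSP2, a lens filament gene, averaged 3.64 ± 1.01 CPM with the MI-503 label (SD, n = 3) and had no read with the DMSO label (adjusted p = 4.08e-05), while NEFL, the neurofilament light chain, had no read with the MI-503 label and averaged 2.75 ± 0.969 CPM with the DMSO label (SD, n = 3; adjusted p = 9.52e-05). SYNM, which encodes synemin, was lower (log2 fold change −2.94, SE 0.35, adjusted p = 5.89e-05).

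Among 17 transcription factors known to act at epithelial genes, 16 were tested, with 9 higher with the MI-503 label, 2 lower and 5 not passing, beside the same shares over all tested genes, and a median log2 fold change of 1.14. TFAP2A, an AP-2 factor, averaged 245 CPM with the MI-503 label and 6.99 CPM with the DMSO label (log2 fold change 5.13, SE 0.22, adjusted p = 8.22e-08). GATA3, the luminal breast factor that is also in the marker list above, averaged 1428 ± 15.4 CPM with the MI-503 label and 0.194 ± 0.335 CPM with the DMSO label (SD, n = 3 each). TFAP2C and GRHL1 were higher by log2 fold changes of 1.72 and 1.77 (SE 0.14 and 0.20, adjusted p = 4.72e-06 and 3.65e-05). TP63, the basal-cell factor that drives KRT5 and KRT14 in skin, averaged 0.151 ± 0.149 CPM with the MI-503 label (SD, n = 3), had no read with the DMSO label and was not tested. KRT14 was read with the DMSO label alone, and the part of TP63 in its level was not tested.

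Markers of basal and squamous cells other than keratins were mixed in direction. Of 12, 7 were tested, with 5 higher with the MI-503 label, among them ITGB4, NGFR and SFN, and 2 lower. Over all tested genes 31.7% were higher and 31.2% were lower. Summed levels of the list were 274 to 339 CPM in libraries labelled MI-503 and 114 to 200.3 CPM in libraries labelled DMSO. LAMA3 and LAMB3, which encode chains of a basement membrane laminin, were the 2 that were lower, as KRT14 was. Like KRT14, DSC3, a desmosomal cadherin, and FLG, which encodes filaggrin, had no read with the MI-503 label, and they averaged 0.493 ± 0.165 CPM and 0.624 ± 0.264 CPM with the DMSO label (SD, n = 3 each), but they were not tested. DSG3, a cadherin of basal keratinocytes, had no read in any library. Of 9 mesenchymal markers, 1 was higher with the MI-503 label and 3 were lower among the 5 tested, beside the same shares over all tested genes. Their summed levels were 215 to 319 CPM with the MI-503 label and 492 to 843 CPM with the DMSO label. Of 6 blood cell markers PTPRC and CD3E had no read. The part of other cells in the keratin differences was not tested.

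The direction of each of the 13 tested members was the same under every alternative in which it was tested, as the plot of fold changes by setting shows. The values of KRT7 and KRT86 moved most with length-scaled counts, and that of KRT15 with DMSO replicate 3 left out, as given above.

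**Figure D5:**
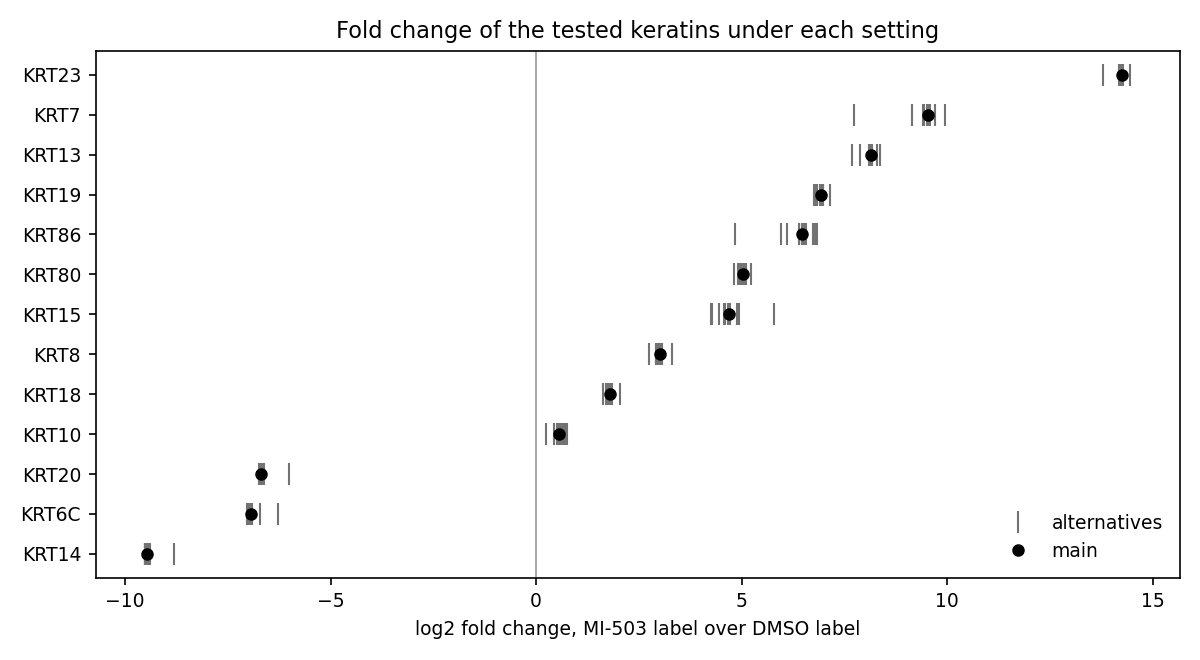
Log2 fold change (MI-503 label over DMSO label) of the 13 tested keratins, with the main value as a dot and each alternative as a vertical mark. All marks of a gene lie on 1 side of 0; the fitted values of KRT23, KRT13, KRT20, KRT6C and KRT14, which had no reads under 1 label, depend on the prior count and are no measure of the size of the difference.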

How the data were processed

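Novogene constructed and sequenced the libraries from RNeasy-purified RNA. The authors quantified transcripts with salmon and deposited, per library, estimated counts of reads without normalization and TPM for 232117 transcripts. The labels name the builds GRCh38.p13 and hg38. For the salmon version, annotation and strand setting, the sources used here give nothing. GENCODE 44 served to assign transcripts to genes (98.8% of transcripts, at least 99.16% of reads per library), and counts were summed and rounded. The labels were compared with edgeR 4.0.16 (quasi-likelihood test, TMM scaling, filterByExpr, no covariates), and the test was checked on simulated counts. CPM are TMM-scaled. DESeq2 1.42.0 and the other alternatives are given in the closing section. Shared words are 31-base sequences found, as such or as their reverse complement, in transcripts of more than 1 gene.

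The keratin members and all lists were chosen with earlier results of these data known. Members with a mean of at least 1 CPM under either label and the near-identical copies were named with values. KRT20, KRT4, KRT16, KRT75 and KRT222 were named after their values were seen. Of the other lists, up to 4 genes with the smallest adjusted p were named, and further genes were chosen after their values were seen. Since the labels do not say how the biological replicates were grown, p-values measure the spread between these libraries.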

Additional observations from a re-analysis of the deposited data

How the results depend on the processing

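No tested keratin changed direction under RLE or upper-quartile scaling, DESeq2, other filters, length-scaled counts, pseudogene reads added to the parent gene, a replicate block or the removal of 1 library, and KRT10 was the only one whose side of the threshold changed. Without a filter on low counts 14 keratins were higher with the MI-503 label, since KRT4, KRT81, KRT83 and KRT222 entered and KRT10 passed, and 4 were lower, since KRT16 entered. With at least 1 CPM in 3 libraries only 1 was lower, since KRT20 and KRT6C were no longer tested. By summed CPM in place of TPM, the type I to type II balance averaged 1.34 with the MI-503 label and 1.17 with the DMSO label. Single libraries had 1.21 to 1.45 with the MI-503 label and 1.07 to 1.27 with the DMSO label, so by CPM the groups overlapped. With 1 library left out, 9 to 10 keratins were higher and 3 were lower, and of all genes 4804 to 5375 were higher and 4548 to 5229 lower. KRT83 was the added member. Protein-coding transcripts alone gave 135 TPM for KRT7, 71.3 TPM for KRT23 and 9.93 TPM for KRT15 with the MI-503 label, and 0.0155 TPM for KRT7, 309 TPM for KRT8 and 3.49 TPM for KRT14 with the DMSO label.

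With the replicate number as a block, 10 keratins were higher and 3 lower, and of all genes 5316 were higher and 4984 lower. Libraries of the same number did not deviate together (correlations of −0.098, 0.071 and −0.089 across 16442 genes), so the numbers were not taken to pair the libraries. Depth limits the 20 untested members that had reads, since the filter left them out and their bounds and ratios cover counting error only.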

Other observations

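Keratin genes that do not encode protein were also read. KRT7-AS, a long noncoding RNA antisense to KRT7, stood at 4.49, 1.99 and 1.72 CPM in libraries labelled MI-503, and at 0.0452, 0.0484 and 0 CPM in libraries labelled DMSO (adjusted p = 7.79e-05, edgeR). It shares 31-base words with KRT7, reverse complements included, and without a stated strand setting the reads of such a pair cannot be told apart. The KRT8 pseudogene KRT8P3 stood at 1.17, 2.20 and 2.85 CPM with the MI-503 label, and at 0.181, 0 and 0.228 CPM with the DMSO label, the same direction as KRT8 (log2 fold change 3.84, standard error 0.74, adjusted p = 0.0012, edgeR). As given above, 8.9% of the 31-base words in KRT8 transcripts occur in KRT8P3. The part of KRT8 reads in the level of KRT8P3 was not tested. KRT8P12 averaged 7.02 ± 1.82 CPM with the MI-503 label and 4.79 ± 1.20 CPM with the DMSO label (SD, n = 3 each; adjusted p = 0.153), and KRT8P33 did not pass either (adjusted p = 0.656). KRT10-AS1, antisense to KRT10, averaged 18.1 ± 3.20 CPM with the MI-503 label and 21.6 ± 1.75 CPM with the DMSO label (SD, n = 3 each; adjusted p = 0.289).

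Pseudogenes took 0.164% to 0.210% of keratin TPM in libraries labelled MI-503 and 0.863% to 1.34% in libraries labelled DMSO. KRT222, a keratin-like type I gene without a known filament partner, had 19 reads with the MI-503 label, at 0.341, 0.262 and 0.416 CPM, and no read with the DMSO label, at least 7.26-fold higher without a test.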
